A study of Mus musculus with 2 samples.

Results

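Genes linked to the scavenging functions of resident macrophages, which are Mrc1, Cd163, Folr2, Lyve1, Selenop, Pf4, Stab1, Cd36, Msr1 and Marco, were followed across cell classes in single-cell RNA-seq of polyp-infiltrating cells. The genes were taken as a list, 10 of the 32285 genes in the count matrices, and were left out of the features used for clustering. CD11b+ and CD11c+ cells had been sorted from colorectal polyps of C57BL/6J mice. An injection of azoxymethane (AOM), a carcinogen, had been followed by 1% dextran sodium sulfate (DSS) in 3 cycles, an inflammation-driven model of colorectal tumors. Cells of 5 WT mice were pooled into one library (WT) and cells of 4 mice lacking Clec7a, which encodes the beta-glucan receptor Dectin-1, into the other (KO). The samples were taken 16 weeks after AOM, and the labels give an age of 26 weeks. AOM and DSS were given to both groups, so no untreated polyp or tissue is part of the comparison. The deletion is carried in every cell of the KO mice, and the mice were not kept apart within a library. Since each genotype has a single library, without replicates, no test was run. Intervals are given at 95% and cover counting error alone (exact Poisson for levels, exact conditional binomial for ratios, Clopper-Pearson for shares).

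Tissue macrophages take up dying cells, modified lipoproteins, glycoproteins and hemoglobin complexes through surface receptors of several unrelated families. Mrc1 encodes the mannose receptor CD206, Stab1 encodes stabilin-1, Msr1 and Marco encode class A scavenger receptors, Cd36 encodes a class B receptor and fatty acid carrier, and Cd163 encodes the receptor for hemoglobin bound to haptoglobin. Folr2 encodes folate receptor beta and Lyve1 a hyaluronan receptor, both used as marks of perivascular or long-lived macrophages. The remaining pair are secreted proteins and not receptors: Selenop encodes the selenium carrier selenoprotein P, and Pf4 encodes the chemokine platelet factor 4 (CXCL4). Cd36, Lyve1, Stab1 and Pf4 are known from other cells too, among them platelets and blood or lymphatic endothelium.

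The depth was 15869215 unique molecular identifiers (UMIs, each tagging 1 captured transcript copy) in 3467 barcodes of the WT library and 11808230 in 3080 barcodes of the KO library. After a filter on detected genes (200 to 4000) and on mitochondrial UMIs (up to 5%), 2696 WT and 1999 KO cells were kept, with medians of 3412.5 and 2671 UMIs, and 17 barcodes occurred in both libraries. Of 15 clusters, the macrophage-like class comprised the pair with 8 of 9 macrophage markers each. It held 499 WT cells, 18.5% of those kept (17.1 to 20.0), and 285 KO cells, 14.3% (12.8 to 15.9), at median depths of 7825 and 6116 UMIs. Shares of cells can be set by the sort and by the limits on detected genes and on mitochondrial UMIs. One macrophage-like cluster was led by Adamdec1, Pgf, Ppbp and Mmp13 (252 WT and 171 KO cells), and the other by Mfge8, Olfml3 and C1qc (247 and 114). A cluster led by Ccl24, Mmp19 and Fn1 (354 and 231 cells) had 1 monocyte marker, too few for a name, and stayed unnamed.

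The macrophage-like cells carried only part of the resident macrophage list. Cd163 had 0 UMIs in the WT cells kept and 1 in the KO cells, Lyve1 had 2 and 0, and Marco had 1 and 1. In the macrophage-like class, with 3995839 WT and 1910801 KO UMIs, none of these genes had more than 1 UMI, and a count of 0 there allows a level of up to 0.751 and 1.57 CPM (counts scaled to 1000000 UMIs). Folr2 had 21 and 15 UMIs, all in the macrophage-like class. From a further list of 24 resident macrophage genes, Vsig4 and Cbr2 were as scarce (0 and 0 UMIs, 0 and 1 UMI), and Timd4 had 9 and 4 UMIs. Most of that list was measured, however, with at least 100 UMIs for 14 of the 24. Among these were Axl (2161 and 951 UMIs), Cx3cr1 (263 and 221) and Maf (235 and 136). The macrophage markers themselves were plentiful too, as the complement genes C1qb (4407 and 5186 CPM) and C1qc (3422 and 4278 CPM) show. The label of resident macrophage scavenger receptors thus describes 6 well-measured genes here, Mrc1, Selenop, Pf4, Stab1, Cd36 and Msr1, each with at least 100 UMIs over both libraries.

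The genes differed in how closely they kept to macrophage-like cells. Mrc1, Selenop and Pf4 lay mostly in that class, Stab1 and Msr1 extended into monocyte-like cells and the Ccl24 Mmp19 cluster, and Cd36 reached dendritic cell-like classes as well. Upstream sequences of genes from these patterns are shown so that their regulatory regions can be compared. Each is the 250 bases before an annotated RefSeq start on GRCm38.p6, read 5′ to 3′ on the gene's strand. Capitals mark GAGGAA or its reverse complement TTCCTC, the core of the site bound by the myeloid factor PU.1. Upstream sequences were found for 8 of the 10 genes, not for Lyve1 and Msr1.
Mrc1, chr2:14229164-14229413, plus strand: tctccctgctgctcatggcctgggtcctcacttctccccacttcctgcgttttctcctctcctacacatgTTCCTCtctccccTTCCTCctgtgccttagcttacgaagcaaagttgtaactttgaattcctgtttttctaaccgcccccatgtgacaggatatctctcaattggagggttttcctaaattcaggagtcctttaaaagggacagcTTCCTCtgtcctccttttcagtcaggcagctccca
Selenop, chr15:3270517-3270766, plus strand: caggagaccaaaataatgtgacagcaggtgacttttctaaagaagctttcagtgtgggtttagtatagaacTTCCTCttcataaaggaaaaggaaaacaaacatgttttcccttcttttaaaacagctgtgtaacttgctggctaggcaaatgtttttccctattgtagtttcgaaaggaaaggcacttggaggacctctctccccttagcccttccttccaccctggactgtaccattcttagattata
Pf4, chr5:90772185-90772434, plus strand: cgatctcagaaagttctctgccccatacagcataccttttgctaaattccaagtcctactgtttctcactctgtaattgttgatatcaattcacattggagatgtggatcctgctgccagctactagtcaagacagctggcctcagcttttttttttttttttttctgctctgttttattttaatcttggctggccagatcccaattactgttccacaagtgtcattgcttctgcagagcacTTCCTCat
Stab1, chr14:31168642-31168891, minus strand: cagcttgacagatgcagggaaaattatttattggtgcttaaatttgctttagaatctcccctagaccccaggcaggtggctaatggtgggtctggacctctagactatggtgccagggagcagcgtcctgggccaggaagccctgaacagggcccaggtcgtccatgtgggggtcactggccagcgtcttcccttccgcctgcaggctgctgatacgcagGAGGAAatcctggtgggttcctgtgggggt
Cd36, chr5:17835897-17836146, minus strand: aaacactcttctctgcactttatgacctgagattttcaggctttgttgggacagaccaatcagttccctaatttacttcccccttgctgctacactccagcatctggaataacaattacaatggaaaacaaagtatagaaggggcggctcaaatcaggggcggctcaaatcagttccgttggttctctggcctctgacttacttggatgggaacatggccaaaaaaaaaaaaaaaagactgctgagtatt

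The motif occurred 3 times upstream of Mrc1 and once each upstream of Pf4, Stab1, Marco and 2 of 3 Selenop starts. It did not occur in these letters upstream of Cd36, Cd163 or either Folr2 start. Thus 5 of the 8 genes held a match at 1 or more starts. By window, 6 of their 11 held a match, where 23.3% of all 32851 upstream windows of this length held at least 1 on either strand. Both Selenop matches are the same site, read in overlapping windows. Among the well-measured genes Mrc1, Selenop, Pf4 and Stab1 had one and Cd36 had none, and among the scarce ones Marco had one and Cd163 and Folr2 had none. The Cd36 and Selenop windows lie inside the annotated gene spans given below, so sequence before any start further upstream was not read. A match is given as a description only. By gene annotation (GENCODE M21, GRCm38), Mrc1 lies at chr2:14229392-14332057, Selenop at chr15:3268547-3280508, Pf4 at chr5:90772435-90773383, Stab1 at chr14:31139013-31168641, Cd36 at chr5:17781690-17888801 and Msr1 at chr8:39581685-39642673. Selenop overlaps Ccdc152 and Stab1 overlaps Nt5dc2, each on the other strand, with 10 and 305 UMIs over both libraries, and reads of the overlaps could not be separated further here.

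**Figure D1:**
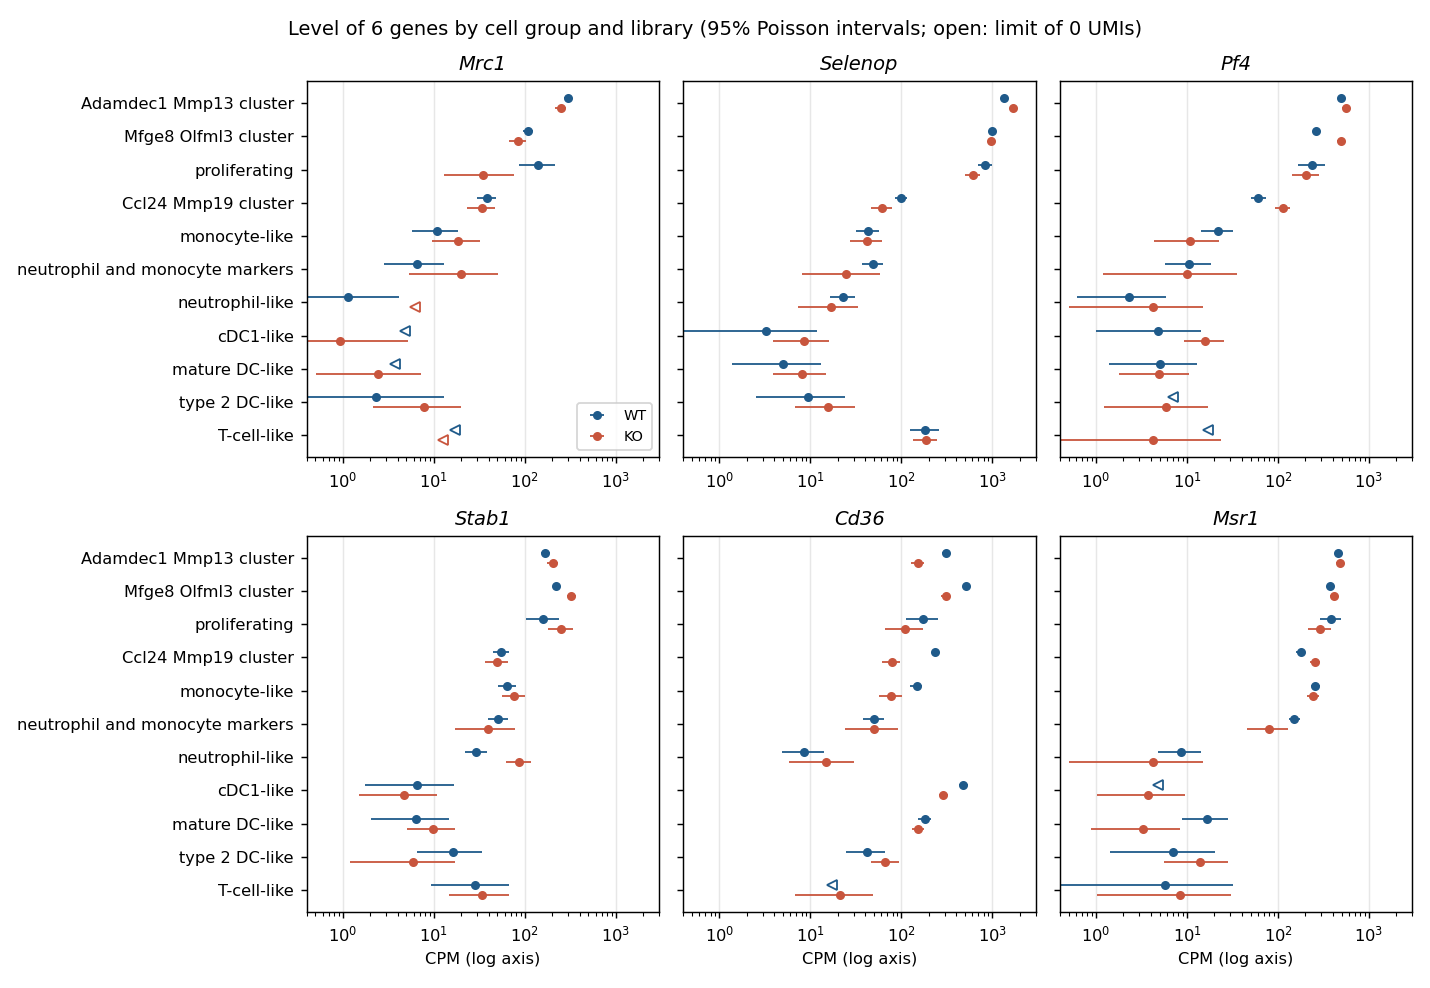
Level in CPM (log axis) of Mrc1, Selenop, Pf4, Stab1, Cd36 and Msr1 in 11 cell groups of the WT (blue) and KO (red) libraries, with 95% Poisson intervals; open triangles mark the limit that 0 UMIs allow, and cDC1-like means type 1 dendritic cell-like. Selenop and Pf4 are highest in the macrophage-like clusters at the top, and Mrc1 in the upper one of them. Msr1 stays high down to the monocyte-like class, and Cd36 has a further high point in cDC1-like cells.

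Mrc1 was measured at 183 CPM (733 UMIs) in WT macrophage-like cells and 163 CPM (311 UMIs) in KO ones, against 13.8 and 11.3 CPM in all other cells. The ratio of the class to the other cells was 13.3-fold in WT and 14.3-fold in KO. Outside the class it was at 139 and 34.9 CPM (21 and 6 UMIs) in the few proliferating cells and at 38.1 and 33.4 CPM in the Ccl24 Mmp19 cluster, and no Mrc1 UMI was seen in T-cell-like cells. Altogether 86.5% (84.1 to 88.8) of WT and 82.9% (78.7 to 86.6) of KO Mrc1 UMIs lay in macrophage-like cells, which held 32.5% and 25.3% of all UMIs.

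Selenop was measured at 1124 CPM (4493 UMIs) and 1301 CPM (2485 UMIs) in WT and KO macrophage-like cells, and at 60.6 and 49.0 CPM in the other cells. The macrophage-like share of its UMIs was 89.95% in WT and 89.97% in KO. Pf4 was at 355 CPM (1420 UMIs) and 522 CPM (998 UMIs) in macrophage-like cells and 23.8 and 33.1 CPM elsewhere, 14.9- and 15.7-fold. Each was thus far higher in macrophage-like cells than in the other cells pooled, in both libraries. The few proliferating cells carried both genes too, with 126 and 105 Selenop UMIs and 36 and 35 Pf4 UMIs, out of 150694 and 171996. Pf4 is best known from platelets, so the platelet list was read beside it. Ppbp, another platelet chemokine gene, had 772 and 261 UMIs in macrophage-like cells, whereas Gp9, Gp1bb and Tubb1 had none, Itga2b had 5 and 0, and Treml1 had 7 and 1. Of the platelet list, Ppbp was thus plentiful in the cells in which Pf4 was counted, and the other genes were at or near 0. Any part of platelet transcripts in the Pf4 count was not tested.

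Stab1 was at 200 CPM (798 UMIs) and 265 CPM (506 UMIs) in macrophage-like cells and 40.5 and 39.1 CPM elsewhere, 4.92- and 6.76-fold. It was present at 63.7 and 75.6 CPM in monocyte-like cells, and at 29.3 and 85.8 CPM (51 and 41 UMIs) in neutrophil-like cells. The neutrophil-like class joined a cluster of 494 WT and 85 KO cells with one of 180 and 318. Its median depth was 2507.5 and 1051 UMIs, so its Stab1 values come from unlike mixes of cells. Proliferating cells had 24 and 43 Stab1 UMIs and 58 and 50 Msr1 UMIs, out of 150694 and 171996. Msr1 was at 407 CPM (1628 UMIs) and 447 CPM (854 UMIs) in macrophage-like cells, 257 and 244 CPM in monocyte-like cells, and 178 and 253 CPM in the Ccl24 Mmp19 cluster. It was near 0 in cDC1-like cells, at 0 and 4 UMIs. Msr1 was therefore shared by macrophage-like and monocyte-like cells at levels within a factor of 2 of each other. Of the 6 genes, Mrc1, Selenop, Pf4 and Stab1 were at least 4-fold higher in macrophage-like than in other cells in WT, and Msr1 joined them in KO, where 2.89% and 2.56% of 8470 genes were. Endothelial markers were scarce in the class. Among 5 lymphatic genes there was 1 Flt4 UMI in all, and among blood endothelial genes Pecam1, which myeloid cells also express, held 194 of 221 WT and 97 of 109 KO UMIs.

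Cd36 had the widest distribution. It was at 428 CPM (1712 UMIs) and 231 CPM (442 UMIs) in macrophage-like cells, 479 CPM (296 UMIs) and 289 CPM (309 UMIs) in cDC1-like cells, and 181 CPM (143 UMIs) and 152 CPM (187 UMIs) in mature dendritic cell-like cells. In each library its level in cDC1-like cells was at least as high as in macrophage-like cells, whereas none of the other 5 genes was above 15.9 CPM there. Macrophage-like cells held 59.6% (57.8 to 61.4) of Cd36 UMIs in WT and 38.8% (35.9 to 41.7) in KO, and cDC1-like cells held 10.3% and 27.1%. The KO library also had more cDC1-like cells, 7.85% of those kept against 3.12%.

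**Figure D2:**
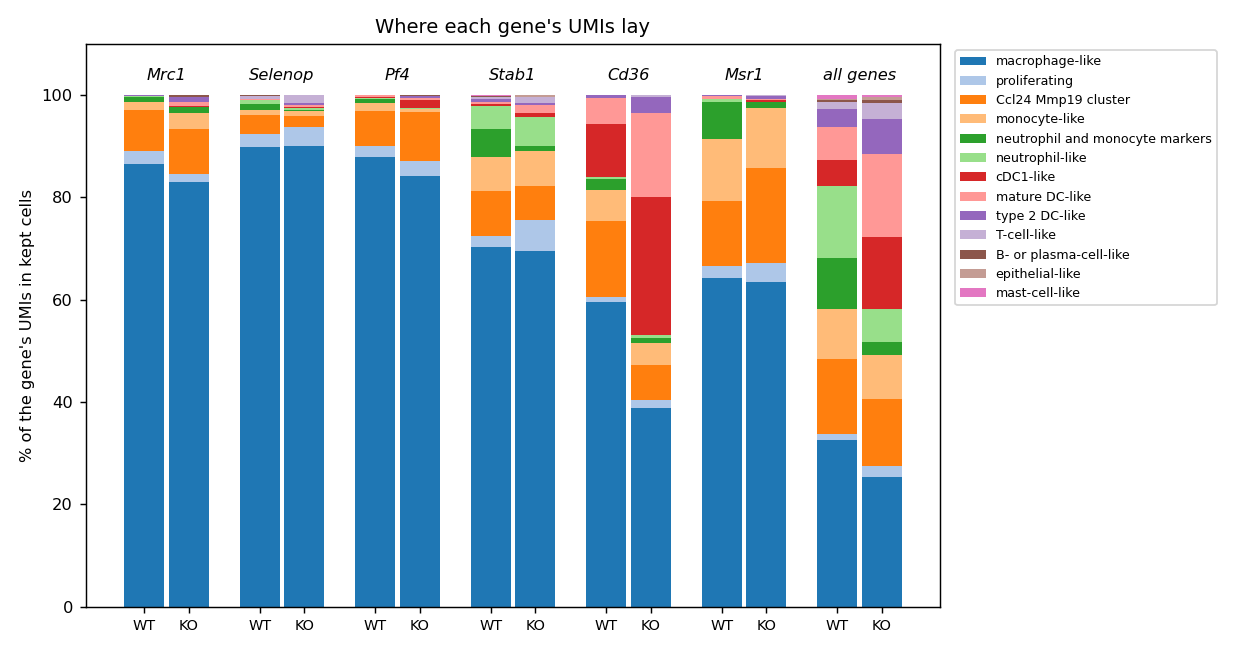
Percent of each gene's UMIs in kept cells that fell in each class, for Mrc1, Selenop, Pf4, Stab1, Cd36 and Msr1 and for all genes together, with the WT and KO libraries side by side. Macrophage-like cells (lowest segment) hold 82.9% to 89.97% of Mrc1, Selenop and Pf4 UMIs, and the dendritic classes take a larger part of Cd36 in the KO library.

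Within the macrophage-like class the genes did not move together. Mrc1 and Folr2 were highest in the Adamdec1 Mmp13 cluster, and Cd36 and Stab1 in the Mfge8 Olfml3 cluster. In WT, Mrc1 was at 296 CPM in the former and 108 CPM in the latter, a log2 ratio of 1.45 (1.23 to 1.67), and in KO it was at 247 and 83.3 CPM, a log2 ratio of 1.56 (1.198 to 1.95). Folr2 had 18 UMIs against 3 in WT and 15 against 0 in KO. Selenop was at 1337 and 983 CPM in WT and at 1663 and 959 CPM in KO. Cd36 ran the other way, with 307 and 510 CPM in WT and 151 and 307 CPM in KO, log2 ratios of -0.73 (-0.89 to -0.58) and -1.02 (-1.32 to -0.73). Stab1 was at 168 and 221 CPM in WT and 203 and 323 CPM in KO. Pf4 was at 495 and 262 CPM in WT, a log2 ratio of 0.92, but at 557 and 490 CPM in KO, a log2 ratio of 0.18 (0.00 to 0.37). Msr1 had log2 ratios of 0.30 in WT and 0.21 in KO. Since these clusters were drawn from the same cells, the values are a description and not a test. Depth differed too, with median totals of 5799.5 and 9921 UMIs in WT and 5372 and 8225 in KO.

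To compare cells at 1 depth, each cell was thinned to 1000 UMIs, which left out 26 WT and 19 KO macrophage-like cells. At least 1 UMI of the 10 genes was then seen in 81.2% of WT (77.4 to 84.6) and 83.1% of KO (78.0 to 87.4) macrophage-like cells, and in 98.6% and 96.8% without thinning. In T-cell-like cells, taken as the background, it was 21.4% (11.6 to 34.4) of 56 and 14.3% (7.83 to 23.2) of 91 cells. Selenop was counted in those cells, as given below, so this background is not one of cells lacking all 10 genes. Selenop was seen in 52.2% and 58.6% of thinned macrophage-like cells, Msr1 in 27.5% and 30.8%, Pf4 in 23.0% and 30.1%, Stab1 in 15.01% and 18.4%, and Mrc1 in 15.4% and 12.03%. Cd36 was seen in 25.2% (21.3 to 29.3) of WT and 12.8% (9.02 to 17.4) of KO cells, and these intervals do not meet. They cover only the sampling of cells within each pool, and the spread between mice was not measured. Without thinning the Cd36 shares were 49.5% and 34.0%, and those of Mrc1 were 53.3% and 47.7%. The T-cell-like shares were 0% for Mrc1 and Msr1 in each library and at most 3.57% for Pf4, Stab1 and Cd36.

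Selenop was the exception in T-cell-like cells, with a UMI in 17.9% (8.91 to 30.4) and 9.89% (4.62 to 17.9) of thinned cells, 19.7% and 21.5% without thinning, and a level of 184 CPM (32 UMIs) and 185 CPM (44 UMIs). Those cells had 0 and 1 Pf4 UMIs. Pf4 made up 24.0% and 28.7% of the UMIs of the pair in macrophage-like cells, but 0% (up to 10.9) and 2.22% (0.0563 to 11.8) in T-cell-like cells. The ratio of these genes in T-cell-like cells was thus unlike that in macrophage-like cells, beyond counting error in each library. Neutrophil-like cells had Selenop at 22.9 and 16.7 CPM.

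**Figure D3:**
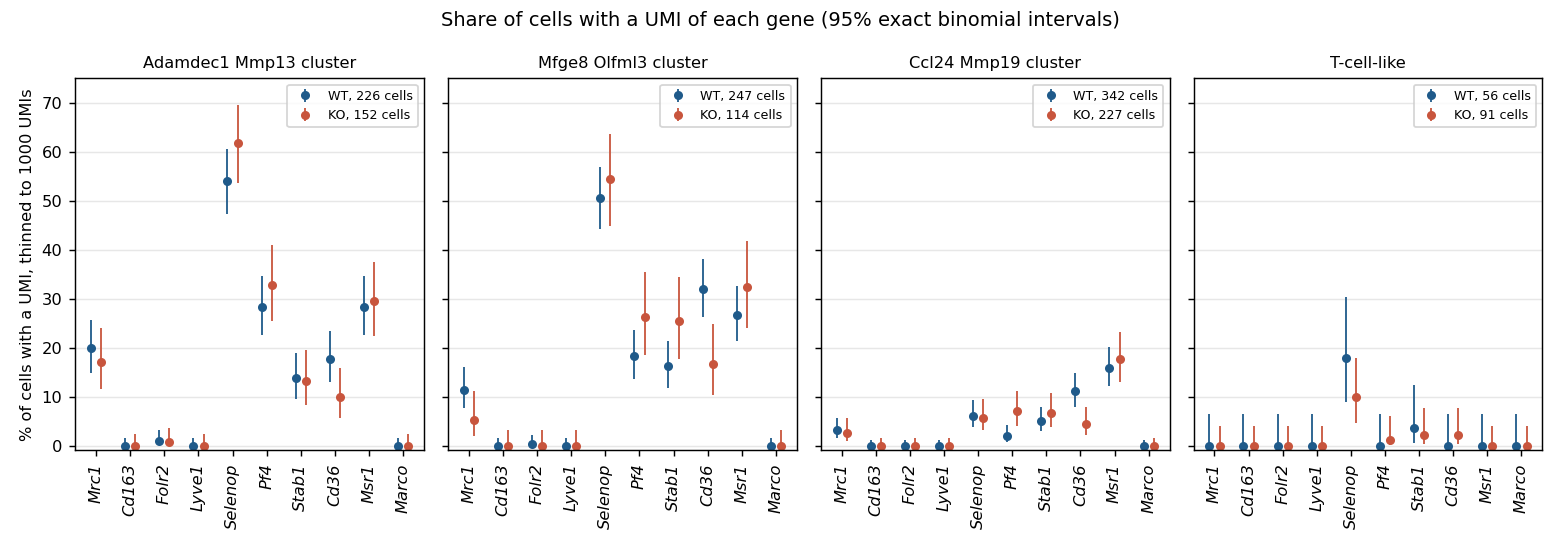
Percent of cells with a UMI of each of the 10 genes after thinning to 1000 UMIs, in both macrophage-like clusters, the Ccl24 Mmp19 cluster and T-cell-like cells, WT in blue and KO in red, with 95% exact binomial intervals. Cd163, Lyve1 and Marco sit at 0 in every panel, Cd36 is higher in WT than in KO in the first 3 panels, and Selenop alone stands out in T-cell-like cells.

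Single macrophage-like cells often had UMIs of more than 1 of these genes. After thinning to 2000 UMIs, a WT cell had UMIs of a median of 2 of the 10 genes and a KO cell of 3. Cells with 3 or more made up 43.6% and 52.2%, those with 5 or more 6.55% and 8.03%, and none had more than 6. The shares that each gene's own frequency would give were not computed, so these values do not show joint expression. In the Ccl24 Mmp19 cluster the median was 1, and 4.17% and 3.43% of cells had 3 or more. Mrc1 was seen in 35.7% (28.2 to 43.8) of WT macrophage-like cells with a Pf4 UMI and 21.8% (17.2 to 27.0) of those without, and in KO in 28.3% and 23.3%, with overlapping intervals. The clusters differ in both genes, and within each the WT intervals overlapped too, at 48.8% (37.4 to 60.2) and 33.3% (25.1 to 42.4) in the Adamdec1 Mmp13 cluster and 21.6% (12.9 to 32.7) and 13.25% (8.50 to 19.4) in the Mfge8 Olfml3 cluster. For Cd36 the Mrc1 shares were 24.3% with and 27.7% without in WT and 26.4% and 25.5% in KO. Mrc1 and Cd36 run in opposite directions between the clusters, so the shares were read within each too. In the Adamdec1 Mmp13 cluster they were 41.7% and 38.7% in WT and 44.0% and 30.9% in KO. In the Mfge8 Olfml3 cluster they were 15.2% and 16.2% in WT and 10.7% and 18.6% in KO. Each pair of intervals overlapped, so no tie was seen at this depth. Only 25 and 28 KO cells of these clusters had a Cd36 UMI, so the KO values say little.

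The comparison of the libraries asked how these genes stood in macrophage-like cells without Dectin-1. Over the class as a whole, Cd36 was lower in the KO library, Pf4, Stab1 and Selenop were higher, and Mrc1 and Msr1 were close to even. By cluster, given below, Mrc1 was lower in each, and Selenop was higher in the Adamdec1 Mmp13 cluster only. Cd36 was at 428 CPM in WT and 231 CPM in KO, a log2 ratio of -0.89 (-1.04 to -0.74), or 1.85-fold lower. Pf4 was at 355 and 522 CPM, a log2 ratio of 0.56 (0.44 to 0.67). Stab1 was at 200 and 265 CPM, a log2 ratio of 0.41 (0.24 to 0.57). Selenop was at 1124 and 1301 CPM, a log2 ratio of 0.21 (0.14 to 0.28). Cd36 and the genes on the other side thus lay beyond counting error in opposite directions within the same cells. The macrophage markers that name the class were higher in KO as well, at a sum of 16669 and 22859 CPM over 9 genes and a median log2 ratio of 0.29, with Apoe at 0.80, Adgre1 at 0.38 and Csf1r at 0.29. Their part in the higher Pf4, Stab1 and Selenop was not tested.

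Mrc1 had a log2 ratio of -0.17 (-0.37 to 0.02). Msr1 had a log2 ratio of 0.13 (0.01 to 0.25), which became -0.05 when each cell was given equal weight. Folr2, at 5.26 and 7.85 CPM, had an interval from -0.48 to 1.60. Over the class as a whole, none of the 6 genes reached a 2-fold difference, where 0.532% of 5642 genes were at least 2-fold lower and 0.248% at least 2-fold higher in KO. Their median log2 ratio was 0.17, beside -0.01 over all those genes. The spread between mice was not measured, so these ratios describe the 2 pools.

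The ratios were also read in each macrophage-like cluster, since the clusters made up 252 and 247 of the WT cells and 171 and 114 of the KO cells. For Cd36 the log2 ratio was -1.02 (-1.30 to -0.75) in the Adamdec1 Mmp13 cluster and -0.73 (-0.92 to -0.55) in the Mfge8 Olfml3 cluster. The former is just past a 2-fold difference, with an interval that reaches within it. The share of all genes past 2-fold in that cluster was not counted. For Pf4 it was 0.17 (0.01 to 0.33) in the former and 0.90 (0.73 to 1.07) in the latter, where the level went from 262 to 490 CPM. Stab1 had 0.27 (-0.01 to 0.54) and 0.55 (0.35 to 0.75). Selenop had 0.32 (0.22 to 0.41) and -0.03 (-0.15 to 0.07). Mrc1 lay below 0 in each, at -0.26 (-0.49 to -0.03) and -0.37 (-0.76 to -0.02). The ratio of -0.17 for Mrc1 over the whole class was nearer to 0 than either. Ratios over the class also carry the mix of clusters. The Adamdec1 Mmp13 cluster, richer in Mrc1 and Selenop, held 1598130 of 3995839 class UMIs in WT and 926743 of 1910801 in KO. The higher Pf4 and Stab1 of the KO library were thus larger in the Mfge8 Olfml3 cluster, and the higher Selenop was seen in the other. These differences could not be tested with 1 library per genotype. The split itself depends on the processing. With up to 10% mitochondrial UMIs allowed, macrophage-like cells formed a single cluster (515 WT and 340 KO cells). They did so without a filter too (699 and 453 cells). Ratios by macrophage-like cluster were not read under other settings.

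**Figure D4:**
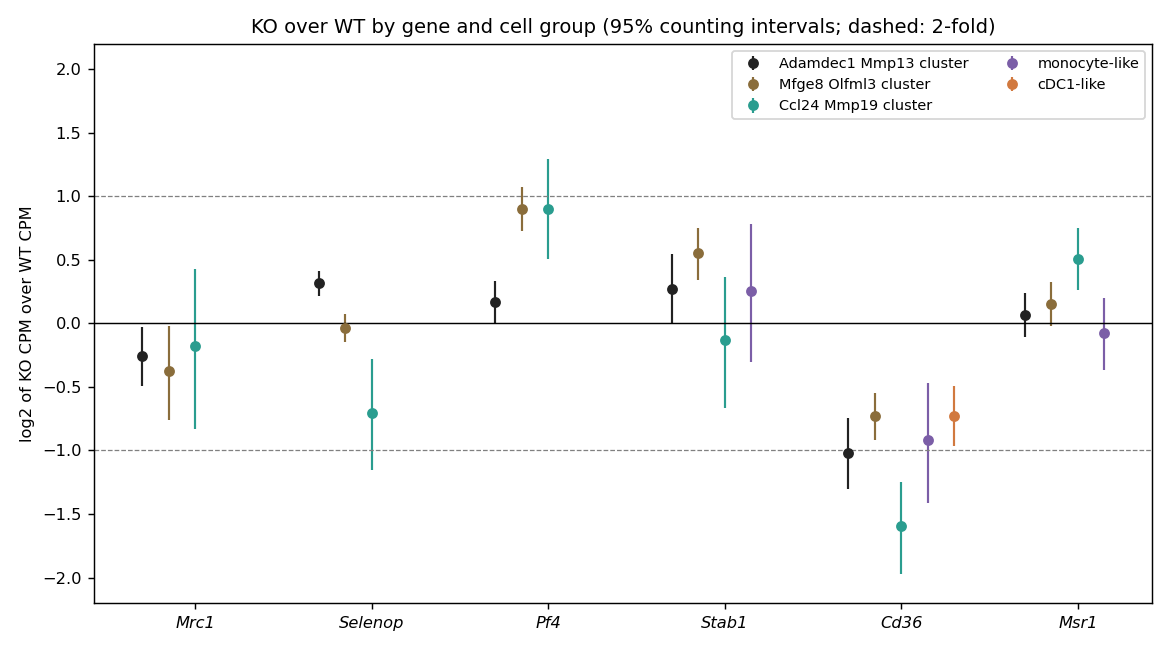
Log2 ratio of KO over WT for the 6 well-measured genes in 5 cell groups, drawn where a group had at least 100 UMIs of the gene, with 95% exact conditional intervals; dashed lines mark a 2-fold difference. Cd36 lies below 0 in the 5 groups drawn, from -0.73 to -1.59 (mature dendritic cell-like cells, at -0.25, are not drawn), whereas Pf4 lies above 0 in the 3 groups in which it was measured.

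Cd36 was lower in KO outside the macrophage-like class too. In the Ccl24 Mmp19 cluster it was at 237 CPM (428 UMIs) in WT and 78.0 CPM (77 UMIs) in KO, a log2 ratio of -1.59 (-1.97 to -1.25), past a 2-fold difference, where 1.05% of 3718 genes were at least 2-fold lower and 0.457% at least 2-fold higher. In monocyte-like cells it was at 147 and 77.1 CPM, a log2 ratio of -0.92 (-1.41 to -0.47), within 2-fold, where 1.14% of 2728 genes were past it lower and 0.147% higher. In cDC1-like cells it was at 479 and 289 CPM, a log2 ratio of -0.73 (-0.96 to -0.49), within 2-fold, where 0.569% of 2461 genes were past it lower and 1.02% higher. Each of these 3 groups was thus on the same side as the macrophage-like class. In mature dendritic cell-like cells, at 181 and 152 CPM, the interval of -0.57 to 0.08 held 0, and in type 2 dendritic cell-like cells, at 41.97 and 66.7 CPM (18 and 34 UMIs), it ran from -0.20 to 1.58. In the cluster with neutrophil and monocyte markers together it was at 49.97 and 49.5 CPM (61 and 10 UMIs), with a wide interval of -1.14 to 0.96. With reciprocal PCA the interval of mature dendritic cell-like cells lay below 0 (-0.81 to -0.13). Under the other settings in which Cd36 was read by class, it held 0. A lower Cd36 beyond counting error was therefore not seen in every class, and these intervals do not exclude a lower level there.

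The size of the Cd36 difference in the Ccl24 Mmp19 cluster moved with the processing, each time with the clusters redrawn. The log2 ratio was -1.32 with reciprocal PCA, -1.30 with doublets removed, -1.10 with up to 10% mitochondrial UMIs allowed and -0.85 without a filter. Pf4 in that cluster went the other way, from 60.8 CPM (110 UMIs) to 114 CPM (112 UMIs), a log2 ratio of 0.90 (0.51 to 1.29). Selenop there went from 99.5 to 60.8 CPM, a log2 ratio of -0.70 (-1.16 to -0.28), and Msr1 from 178 to 253 CPM, a log2 ratio of 0.51 (0.27 to 0.75). Neutrophil transcripts also differed between the libraries in macrophage-like cells, with S100a8 at 188 and 64.4 CPM and Retnlg at 78.1 and 17.8 CPM. Of the 10 genes of that list, 6 had at least 100 UMIs and 4 were at least 2-fold lower in KO, where 0.532% of 5642 genes were. The list summed to 1230 and 926 CPM, with Mmp9, a leading gene of the Adamdec1 Mmp13 cluster, at 569 and 639 CPM. Neutrophil-like cells held Cd36 at 8.60 and 14.7 CPM. Any part of neutrophil transcripts in the Cd36 difference was not tested.

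Summed over the 10 genes, the level in macrophage-like cells was 2704 CPM (10806 UMIs) in WT and 2937 CPM (5612 UMIs) in KO, a log2 ratio of 0.12 (0.07 to 0.17). Over all cells kept it was 1142 and 999 CPM, a log2 ratio of -0.19 (-0.23 to -0.15). There, too, none of the 6 genes passed 2-fold, where 1.71% of 8470 genes were past it lower and 2.42% higher; Cd36 was at 234 and 151 CPM and Mrc1 at 68.96 and 49.6 CPM. The sum was thus slightly higher within the class and lower over the whole library, which had a smaller share of macrophage-like cells. Macrophage-like cells held 77.1% (76.4 to 77.8) of these UMIs in WT and 74.3% (73.3 to 75.3) in KO. Selenop alone made up 41.6% and 44.3% of the sum in macrophage-like cells, while Cd36 made up 15.8% and 7.88%.

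Genes of related function were read from fixed lists in the same macrophage-like cells. There, 0.532% of 5642 genes were at least 2-fold lower and 0.248% at least 2-fold higher in KO, so a count of none in a short list is near that share. Of 20 other scavenger receptor genes, 4 had at least 100 UMIs and none differed by 2-fold: Cd68, a lysosomal glycoprotein, was at 1049 and 1121 CPM, and Colec12, a class A receptor, at 31.5 and 29.3 CPM. Below that minimum, and named after its values were seen, Scarb1, a class B receptor like Cd36, had 75 UMIs in WT and 14 in KO, a log2 ratio of -1.32 (-2.30 to -0.52). Of 14 lipid handling genes, 12 had enough UMIs and none differed by 2-fold, with a median log2 ratio of -0.05. Lpl, the lipoprotein lipase gene, was lowest among them at 163 and 107 CPM, a log2 ratio of -0.60 (-0.84 to -0.38), and Gpnmb, a lysosomal membrane glycoprotein gene, was highest at 153 and 176 CPM. Fabp5, which carries fatty acids in the cell, was nearly level at 632 and 620 CPM. Plin2 (log2 ratio -0.27, -0.35 to -0.18) and Lipa (-0.15, -0.25 to -0.04) were lower beyond counting error as well. Npc2 (0.09, 0.01 to 0.16) and Gpnmb (0.20, 0.00 to 0.39) lay above 0. The lower Cd36 therefore stood beside a lower Lpl, Plin2 and Lipa, in a list whose median was -0.05. Of all 5642 genes, 52.1% had a log2 ratio below 0, and the share with an interval below 0 is not given here. Lpl is a leading gene of the Mfge8 Olfml3 cluster, and ratios over the class carry the mix of clusters. The part of that mix in the lower Lpl was not tested.

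Of 24 resident macrophage genes, 14 had enough UMIs, none differed by 2-fold and the median log2 ratio was 0.28. In the class 0.532% of 5642 genes were at least 2-fold lower and 0.248% higher. The list summed to 10531 and 7626 CPM in the class and to 19911 and 8864 CPM in the other cells. Its sum was thus not particular to macrophage-like cells. Hmox1 alone held 33865 of the 42080 WT UMIs and 10139 of the 14572 KO UMIs of the list in the class. The sum there therefore mostly describes Hmox1 and says little of the other genes. Igf1, a growth factor gene, was at 52.8 and 102 CPM, a log2 ratio of 0.95 (0.66 to 1.24), and Ccl24, an eosinophil chemokine gene, was at 86.1 and 166 CPM. At the other end, Slc40a1, which exports iron, was at 154 and 90.01 CPM, a log2 ratio of -0.78 (-1.03 to -0.53), and Hmox1, which degrades heme, at 8475 and 5306 CPM. Short of the UMI minimum, and named after their values were seen, were Ccl7, a monocyte chemokine gene, with 3 UMIs in WT and 83 in KO, and Gas6, which encodes a bridging ligand for dying cells, with 83 and 14.

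The genes closest in pattern were found over 24 points, each a cluster of at least 20 cells in 1 library, among 8470 genes by Pearson's r of log2(CPM + 10). Points from one library share its depth, and neighbouring clusters share cell type, so the values are descriptive. Mrc1 was most like Mmp13, a collagenase gene (r = 0.95), Pf4 (r = 0.94) and Ms4a14 (r = 0.94). Pf4 was most like C1qb (r = 0.95), Mertk, a receptor for dying cells (r = 0.94), and Ms4a14 (r = 0.94). Selenop was most like Fcrls (r = 0.93), Tpcn2 and Itgb5, and Stab1 was most like Adgre1, which encodes F4/80 (r = 0.92), Trf and Hacd4. Among the genes close to Msr1 were Fcgr1, which encodes an Fc receptor (r = 0.96), and Cln8 (r = 0.96). The nearest genes to Cd36 were Cttnbp2nl (r = 0.91), 2510009E07Rik and F11r.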

How the data were processed

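CD11b+ and CD11c+ cells from polyps were captured with the SeekOne MM kit, which counts 3′ ends. One label names 10x Genomics instead. What the authors deposited is a table of raw UMI counts for each barcode, not normalized. The submitters' processing notes name Cell Ranger 2.1.1 and mm10. The study's own filter was used (200 to 4000 detected genes, up to 5% mitochondrial UMIs), which leaves out 54 WT and 30 KO barcodes for too many genes. The mitochondrial limit left out more, and unequally, with 729 of 3467 WT and 1057 of 3080 KO barcodes above it. Clusters were made in R 4.3.3 with Seurat 5.3.0 (LogNormalize to 10000, 2000 variable features without the 10 genes, the related lists and mitochondrial genes, 20 principal components, Louvain at 0.7, the lowest resolution with at least 15 clusters, no batch correction). Classes needed at least 3 markers more than 2-fold above the other cells (log2 above 1); this rule was set after the data were seen. Doublets were kept in the main analysis: Scrublet (scanpy 1.11.5) marked 2 of 2696 and 8 of 1999 cells.

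Levels are summed UMIs over summed totals. Ratios carry a pseudocount of 0.5 UMI, and genes with at least 100 UMIs over both libraries were compared. A count of 0 was given a limit of 3 counts. Thinning used random seed 1. The ratio and its interval were tested on simulated data with known changes. Tables were made with Python 3.11.15, numpy 2.4.6, pandas 2.3.3 and scipy 1.17.1. The 10 genes, the lists and the tests were chosen with earlier results of these data known. Genes named are the 10, the cell type markers, genes of the related lists, and the 3 genes most alike to each well-measured one. From the related lists, those with the largest ratios in each direction are among them. Clec7a was not analysed here, and some genes that the rule names are not reported here. Alternatives were up to 10% mitochondrial UMIs, no filter, the 5% highest doublet scores removed, all variable features, 10 or 30 components, a resolution higher by 0.4, reciprocal PCA, a mean over cells, TMM factors (edgeR 4.0.16), 20 in place of 100 UMIs per gene, 5 UMIs as the pseudocount, and thinning to 2000 UMIs or none.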

Additional observations from a re-analysis of the deposited data

Results flagged for a closer look

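Selenop and Msr1 stood out because their intervals lay on opposite sides of 0 in different classes; the difference between classes was not tested. For Selenop the log2 ratio of KO over WT was 0.21 in macrophage-like cells, -0.70 in the Ccl24 Mmp19 cluster and -0.45 in the proliferating cluster of 14 WT and 21 KO cells. For Msr1 it was 0.13 in macrophage-like cells and 0.51 in the Ccl24 Mmp19 cluster, but -0.89 in the cluster with neutrophil and monocyte markers together, which held 185 WT and 16 KO Msr1 UMIs.

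Barcodes that the filter left out also carried these genes, at a summed level of 1248 CPM in WT (771 barcodes) and 809 CPM in KO (1081 barcodes). Among them, the barcodes with over 4000 detected genes had 1589 CPM in 54 WT barcodes and 1549 CPM in 30 KO barcodes. Msr1 was at 383 and 336 CPM there, and Cd36 at 256 and 267 CPM.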

How the results depend on the processing

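In the macrophage-like class as a whole no gene of the 6 passed a 2-fold difference under any of the 12 alternatives, and the median log2 ratio stayed between 0.08 and 0.21. Cd36 kept its direction under all 11 alternatives tried for a single gene (-0.97 to -0.83), as did Pf4 (0.39 to 0.60), Stab1 (0.35 to 0.46), Selenop (0.10 to 0.25), Mrc1 (-0.28 to -0.13) and the sparse Folr2 (0.04 to 0.96). Msr1 turned to -0.048 with a mean over cells. The summed log2 ratio in the class went from 0.12 to 0.056 with up to 10% mitochondrial UMIs and to 0.024 without a filter. Over all cells kept it went from -0.19 to -0.31, -0.32 and, with TMM factors, -0.36. The macrophage-like share of the summed UMIs, 77.1% in WT and 74.3% in KO, was 66.8% and 66.05% with up to 10% mitochondrial UMIs, 78.7% and 76.1% with doublets removed, 78.6% and 76.1% with all variable features, 67.1% and 66.4% with 10 components, 71.7% and 69.0% with 30, and 69.1% and 70.04% with reciprocal PCA, which turned the order of the libraries, and 71.6% in KO without a filter. Cells with a UMI of these genes made up 93.9% and 96.4% at 2000 UMIs, and 98.6% and 96.8% without thinning, by construction since more UMIs are read. The causes of the other changes were not tested. Alternatives for Cd36 in other classes were chosen after the data were seen, and its log2 ratio ran from -1.32 to -0.85 in the Ccl24 Mmp19 cluster (within 2-fold without a filter), -0.83 to -0.46 in cDC1-like cells and -1.02 to -0.90 in monocyte-like cells. No paired analysis was possible because each genotype has 1 library, and none can be left out. Counts of 3 or fewer, as for Cd163, Lyve1 and Marco, limit what can be said of those genes.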
